A study of Drosophila melanogaster with 60 samples.

Results

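The comparison set midday against midnight in the abdominal fat tissue of wild-type flies kept at 18 °C, and asked which transcripts differed between the middle of the light phase and the middle of the dark phase. Midday was zeitgeber time (ZT, hours after lights on) 4, 6 and 8, and midnight was ZT 16, 18 and 20, with lights off at ZT 12. Of the 60 libraries of the series, 11 entered: 6 of midday and 5 of midnight, from 2 independent samplings. The midnight library of sampling 1 at ZT 20 was left out, because its column held the same values as that of the same sampling at ZT 2, so that its time could not be told. All flies were mated females of w1118, about 3 days old, fed sucrose and yeast and entrained for 5 days at 18 °C to 12 h of light and 12 h of dark. The same windows of w1118 flies kept at 25 °C (6 libraries each) served for values side by side. Each library pooled 10 flies, whose fat tissue was taken on the epidermis after gut, ovaries and Malpighian tubules had been removed. The rest of the series was w1118 at other times and Clk-Jrk, a mutant of the Clock gene, at 25 °C. Per the labels, night samples were dissected in the daytime by means of a pair of incubators with opposite light schedules. The sources used here do not say which incubator held which sample, so window and incubator cannot be told apart.

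The fat body combines the tasks of liver and adipose tissue in the fly. It stores fat and glycogen, and it secretes lipoproteins, yolk proteins, immune peptides and basement membrane proteins into the haemolymph through the endoplasmic reticulum (ER) and Golgi. Its cells carry their own clock: CLOCK and CYCLE drive per, tim, vri and Pdp1, the PER and TIM proteins block that drive, and CRY, a blue-light receptor, resets it by way of TIM. Feeding also patterns this tissue, in which insulin and TOR signals favour synthesis and hold back autophagy, the breakdown of cell contents in lysosomes.

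The depth was 5198711 to 13140710 estimated counts in the midday libraries and 8114993 to 25133564 in the midnight libraries, and 8999 of 13969 genes had counts high enough to be tested. Differences are log2 of midday over midnight with their SE, fitted to counts in edgeR with the sampling as a block, and adjusted p-values are Benjamini-Hochberg values of its quasi-likelihood test over all genes tested. CPM are counts relative to the scaled library size. The midday values given for a gene are the lowest, the median and the highest of 6 libraries, and the midnight values are those of all 5 libraries, in the order ZT 16 of samplings 1 and 2, ZT 18 of samplings 1 and 2, and ZT 20 of sampling 2. The 14 fat body markers summed to 28651, 104980 and 174625 CPM at midday (lowest, median, highest) and 24115.5, 82870.4 and 146844 CPM at midnight. Over both windows the sums ran from 24115.5 to 53077 CPM in sampling 1 and from 82870.4 to 174625 CPM in sampling 2. Midnight had fewer libraries of sampling 1 than of sampling 2, so the pooled medians mix the samplings unequally. Of the 13 fat body markers tested, 1 passed, Ilp6, which was lower, 11 had positive values, and the median log2 difference was 0.43 (0.46 in sampling 1 and 0.17 in sampling 2 fitted alone). Markers of removed organs were present at levels that varied between libraries. The 25 ovary markers summed to 46.8, 138.9 and 3161 CPM at midday and 91.1, 300.1 and 1002 CPM at midnight, and were highest in sampling 2 at ZT 8 (3161 CPM), ZT 6 (1185 CPM) and ZT 16 (1002 CPM). The 24 gut markers summed to 42.6, 417 and 2120 CPM at midday and 56.6, 279.98 and 1139.7 CPM at midnight, and were highest in sampling 1 at ZT 6. None of the 12 ovary markers tested (2 at an unadjusted p under 0.05 and 0 in DESeq2) and of the 12 gut markers tested (1 at an unadjusted p under 0.05 and 0 in DESeq2) passed in edgeR, and their median log2 differences were 1.23 and 1.15. The ovary markers ran opposite ways in the samplings fitted alone, at -0.61 in sampling 1 and 0.82 in sampling 2, and the median of their summed levels was lower at midday, while the gut markers were at 0.40 and 0.90. The 22 muscle markers summed to 6347 to 13108.5 CPM at midday and 5023 to 10644 CPM at midnight, with a median log2 difference of 0.23. The samplings fitted alone gave 0.37 in sampling 1 and 0.10 in sampling 2. Of these 22 markers 20 had positive values and 0 passed in edgeR (6 at an unadjusted p under 0.05 and 1 in DESeq2). The 10 oenocyte and epidermis markers, from the cuticle side of the sample, summed to 55187, 59424.5 and 82445.5 CPM at midday and 48967, 64199.6 and 97740.7 CPM at midnight. Of the 9 tested, 0 passed in edgeR (3 at an unadjusted p under 0.05 and 3 in DESeq2), 7 had positive values, and the median was 0.34 (0.59 in sampling 1 and 0.17 in sampling 2). Of 11 neuron markers 9 had negative values (median -0.49) and of 7 Malpighian tubule markers 6 had (median -0.29), with 0 past the test in edgeR (3 at an unadjusted p under 0.05 and 1 in DESeq2 for neuron, 0 at an unadjusted p under 0.05 and 0 in DESeq2 for Malpighian tubule). The part of RNA from these sources in the results below was not tested. In bulk tissue, fewer cells of a type and less RNA per cell cannot be told apart.

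Single genes of protein secretion, of the pentose phosphate and folate pathways and of the basement membrane were higher at midday, and the autophagy kinase gene Atg1 with its partner Atg101, the myoblast fusion gene rost and the nocturnin homologue cu (curled) were lower. In all, 122 genes passed the test at an adjusted p under 0.05, which is 1.36% of those tested. At an unadjusted p under 0.05 there were 1562 genes (17.4%), and DESeq2 called 526 (5.85%), the shares against which counts of these kinds for single lists are to be read. All lists were chosen with earlier results of these data known, so that their counts describe these data and are no independent test. Over all genes tested 4253 values were positive and 4746 negative, the counts beside which the signs in a list are to be read. Members of a list were measured in the same 11 libraries, so their signs are not independent of each other. Of the 122 genes, 75 were higher at midday (0.833% of genes tested) with a median log2 difference of 0.70, and 47 were lower (0.522%) with a median of -0.62. The differences were moderate, and 23 reached 2-fold, 14 higher and 9 lower. The pair CG17325 and CG42305 had identical counts, so these 2 of the 75 stand for 1 measurement. Within both samplings the windows were apart, in the same direction, for 120 of the 122 genes, against 473 of all genes tested (5.26%). Without regard to sampling they were apart for 47, against 96 of all genes tested (1.07%). The test used the same values, so these counts describe the calls.

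The calls depended on single libraries, while no direction changed and no log2 difference of the 122 genes moved by over 1.5 times when 1 library was left out. The same libraries chose these genes, and each such fit shares all libraries but 1 with the main fit. Kept signs and sizes are thus largely fixed by the choice. In fits without 1 library at midday, the count was 26 (ZT 4, sampling 1), 30 (ZT 4, sampling 2), 28 (ZT 6, sampling 1), 13 (ZT 6, sampling 2), 47 (ZT 8, sampling 1) and 64 (ZT 8, sampling 2). In fits without 1 library at midnight it was 44 (ZT 16, sampling 1), 31 (ZT 16, sampling 2), 15 (ZT 18, sampling 1), 176 (ZT 18, sampling 2) and 20 (ZT 20, sampling 2). Every one of the 122 genes that could be fitted kept its sign in all 11 of these fits, 26 passed in at least 6, 9 in 0, and 12 in all 11: rost, alpha-Est8, scf, CG14406, Atg101, CG7149, Jhbp1, js, CG18622, Atg1, mlt and S6KL. Without the midday libraries with most gut and most ovary marker RNA (ZT 6 of sampling 1 and ZT 8 of sampling 2) 19 genes passed, and with ovary, gut and muscle marker means as covariates 9 did, with all 122 signs kept in both.

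Among the 12 genes that passed in all 11 fits, rost fell furthest. This gene, rolling stone, encodes a membrane protein known from myoblast fusion. Its level was 20.2, 30.7 and 41.8 CPM at midday and 60.8, 70.9, 51.8, 109 and 90.3 CPM at midnight. Every midday library lay below every midnight library, with a log2 difference of -1.24 ± 0.14, adjusted p = 0.00672. CG14406 rose furthest of these 12, with 25.1, 42.8 and 63.5 CPM at midday against 21.0, 8.66, 15.1, 13.3 and 11.4 CPM at midnight (1.59 ± 0.18, adjusted p = 0.00685). The lowest midday library stood above the highest midnight one. CG7149 stood at 29.4, 44.1 and 64.3 CPM at midday and 18.3, 12.8, 15.9, 17.8 and 16.5 CPM at midnight, again without overlap (1.5 ± 0.20, adjusted p = 0.00993). The gene js had 12.9, 19.6 and 24.8 CPM at midday and 9.77, 5.85, 10.5, 8.21 and 6.69 CPM at midnight (1.14 ± 0.11, adjusted p = 0.00484). Its windows were apart as well, and sampling 1 was higher than sampling 2 in both. Jhbp1, named as a juvenile hormone binding protein, had 19.4, 31.2 and 53.8 CPM at midday and 20.2, 5.39, 18.2, 9.03 and 10.8 CPM at midnight (1.35 ± 0.17, adjusted p = 0.00968). The windows overlapped only across samplings, where the midnight value of sampling 1 at ZT 16 exceeded the lowest midday value of sampling 2. The carboxylesterase gene alpha-Est8 rose by 0.91, CG18622 by 0.82 and scf, which encodes a calcium-binding protein, by 0.57 (adjusted p = 0.0123, 0.00993 and 0.00778). CG18622 had 10.5, 10.9 and 11.4 CPM at midday and 6.10, 5.17, 6.04, 7.25 and 6.57 CPM at midnight. The lower genes mlt, which encodes a relative of tubulin-folding cofactor E, and S6KL, which encodes a kinase related to S6 kinase, had log2 differences of -0.77 ± 0.09, adjusted p = 0.00917 and -0.61 ± 0.08, adjusted p = 0.00949.

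**Figure D1:**
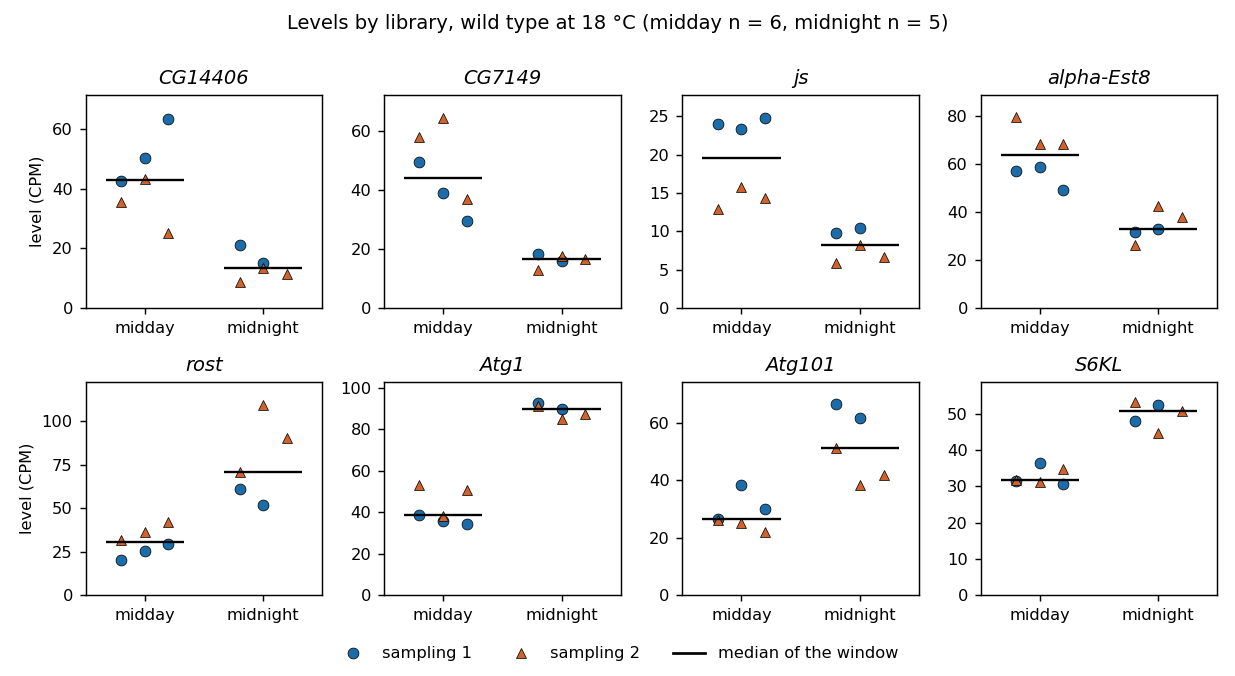
Levels in CPM of 8 of the 12 genes that passed in every fit without 1 library, for the 6 midday (left) and 5 midnight (right) libraries in the order of ZT within each window; circles are sampling 1, triangles sampling 2, and bars the medians. The windows do not overlap for any of the 8; CG14406, CG7149, js and alpha-Est8 are higher at midday and rost, Atg1, Atg101 and S6KL lower.

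Further genes that passed, with windows apart and a mean of 3 or more on the log2 CPM scale, were named by size of difference. On the midday side they were CG10516 (1.34), CAH7, a carbonic anhydrase gene (0.94), CG16758 (0.98), CG11409 (0.91) and a (arc), which encodes a PDZ domain protein (0.83), with adjusted p from 0.0165 for a to 0.0478 for CG16758. On the midnight side, Invadolysin, which encodes a metalloprotease found on lipid droplets, had 105, 118 and 159 CPM at midday and 181, 182, 386, 266 and 299 CPM at midnight (-1.13 ± 0.19, adjusted p = 0.0300). Its highest midday value came from ZT 4 of sampling 1, which still lay below every midnight library. Taz, the gene of tafazzin, which remodels the mitochondrial lipid cardiolipin, fell by 0.77 and Ndae1, which encodes a sodium-driven anion exchanger, by 0.78 (adjusted p = 0.0433 and 0.0450). The gene cu had 68.9, 107 and 128 CPM at midday and 176, 161, 227, 159 and 140.5 CPM at midnight (-0.76 ± 0.12, adjusted p = 0.0227), so that all midday libraries were below the midnight ones. In mammals, nocturnin is a rhythmic protein of liver and fat with a part in lipid handling. The other declines were those of atos (-0.63), CG8034 (-1.03), CG11275 (-0.80) and the cuticle protein gene Cpr73D (-1.29), with adjusted p of 0.0144, 0.0175, 0.0382 and 0.0450. Of the 11 fits without 1 library, atos passed in 10, a and CG8034 in 9, cu in 6, CAH7 and Invadolysin in 3, CG11409 and CG11275 in 2, and CG10516, CG16758, Taz, Ndae1 and Cpr73D in 1.

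Proteins bound for secretion enter the ER through the Sec61 translocon, fold there with the help of lectins and disulfide isomerases, and leave in COPII vesicles, while COPI vesicles bring components back. Of 19 genes of ER folding and translocon, 4 were higher at midday and none passed in the other direction, 15 did not pass, and all 19 had a positive value. Their median log2 difference was 0.61, beside -0.02 for all genes tested, and 0.43 in sampling 1 and 0.67 in sampling 2 fitted alone. Calr encodes calreticulin, a lectin that holds unfolded glycoproteins in the ER. Its level was 472, 574 and 808 CPM at midday and 318, 345, 298, 590.5 and 404 CPM at midnight, a log2 difference of 0.68 ± 0.13, adjusted p = 0.0382. ERp60, a disulfide isomerase that works with it, had 285, 375 and 456 CPM at midday and 217, 313, 212, 378 and 269 CPM at midnight (0.49 ± 0.09, adjusted p = 0.0351). For both, each midday library was above each midnight library of its own sampling, the windows overlapped across samplings, and sampling 2 was higher than sampling 1 at each time. SsRbeta, a subunit of the translocon-associated complex, had 103, 142 and 198 CPM at midday and 76.6, 80.0, 82.2, 126 and 84.4 CPM at midnight (0.75 ± 0.15, adjusted p = 0.0433), with the windows apart within each sampling. Spase25, a signal peptidase subunit, rose by 0.62 (adjusted p = 0.0300). Members that did not pass had values from 0.11 for the oxidase gene Ero1L to 0.83 for TRAM, a translocon partner, with 0.82 for the chaperone gene Gp93, 0.80 for Pdi and 0.61 for Hsc70-3, the fly BiP (adjusted p = 0.741, 0.0726, 0.143, 0.0610 and 0.218).

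The calls of the ER list changed with each library left out. Without ZT 8 of sampling 2 at midday 1 of 19 genes passed, without ZT 18 of sampling 2 at midnight 9 passed, and without any other single library (midday ZT 4 and 6 of both samplings and ZT 8 of sampling 1, midnight ZT 16 of both, ZT 18 of sampling 1 and ZT 20 of sampling 2) 0 passed in edgeR. None passed in edgeR either with marker means as covariates, without the midday libraries with most gut or ovary marker RNA, without the block or in either sampling alone. With RLE scaling 3 of the 19 passed. In the fit to all 11 libraries 15 of 19 had an unadjusted p under 0.05 (17.4% of all genes), and DESeq2 called 13 (5.85% of all genes). The median stayed between 0.43 and 0.76 in every alternative fit. Of 6 genes of the unfolded protein response, 0 passed in edgeR (1 at an unadjusted p under 0.05 and 0 in DESeq2), with a median of -0.03, and Xbp1, its transcription factor gene, had 0.30 (adjusted p = 0.187).

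Steps next to the translocon were put into lists only after their values had been seen. The counts below describe the calls, and the lists above were also chosen with earlier results of these data known. Of 13 genes of signal recognition and signal peptide processing, 3 were higher at midday and none passed as lower, with a median of 0.38. Besides Spase25 they were Srp72, a protein of the signal recognition particle (0.46 ± 0.07, adjusted p = 0.0241), and Spp, the signal peptide peptidase gene (0.68 ± 0.13, adjusted p = 0.0382). The translocon-associated complex had 2 of 4 higher, SsRbeta and CG5885, its gamma subunit. CG5885 had 82.0, 125 and 196 CPM at midday and 50.7, 80.2, 53.9, 114 and 83.7 CPM at midnight (0.87 ± 0.12, adjusted p = 0.0144), passed in 8 of 11 fits without 1 library, and was apart within each sampling. Oligosaccharyltransferase, which puts sugar chains on nascent proteins, had 3 of 8 subunit genes higher: Ost48 (0.44), kud (0.52) and CG33303, the fly ribophorin I (0.49). The exception in sign was the catalytic subunit gene Stt3A, at -0.27 (adjusted p = 0.485). With 1 library left out, Srp72 passed in 3 of 11 fits, Spp and Spase25 in 2 each, and SsRbeta, Ost48, kud and CG33303 in 1 each. Of the 10 genes of the ER membrane complex, which inserts membrane proteins, 0 passed in edgeR (4 at an unadjusted p under 0.05 and 1 in DESeq2), with a median of 0.15.

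Among 17 genes of secretory vesicle coats, 3 were higher at midday and none passed as lower, 16 of 17 values were positive, and the median was 0.41. In fits without 1 library the count was 7 (without midnight ZT 18 of sampling 2), 3 (without midday ZT 8 of sampling 2), 1 (without midday ZT 8 of sampling 1) or, without any other library, 0 in edgeR, and in the fit to all libraries 12 genes had an unadjusted p under 0.05 and DESeq2 called 9, beside 17.4% and 5.85% of all genes. It was 0 as well with marker means as covariates, without the marker-rich libraries, without the block and in each sampling alone. Sec31, of the outer COPII coat, had 65.4, 79.2 and 117 CPM at midday and 46.0, 71.3, 51.3, 80.9 and 73.1 CPM at midnight (0.48 ± 0.08, adjusted p = 0.0339). The COPI genes betaCOP and beta'COP rose by 0.55 and 0.48 (adjusted p = 0.0372 and 0.0241). The other COPI subunits had 0.35 for alphaCOP, 0.41 for gammaCOP, 0.47 for deltaCOP, 0.41 for epsilonCOP and 0.26 for zetaCOP, none of them past the test. Calls outside the lists, named after their values were seen, included the cargo receptor genes ergic53 (0.63) and CHOp24 (0.55), Yif1 (0.33) and boca, a chaperone gene of lipoprotein receptors (0.48). Their adjusted p-values were 0.0458, 0.0423, 0.0487 and 0.0339. When 1 library was left out, boca and beta'COP passed in 3 of 11 fits, Sec31, betaCOP and CHOp24 in 2, and ergic53 and Yif1 in 1.

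**Figure D2:**
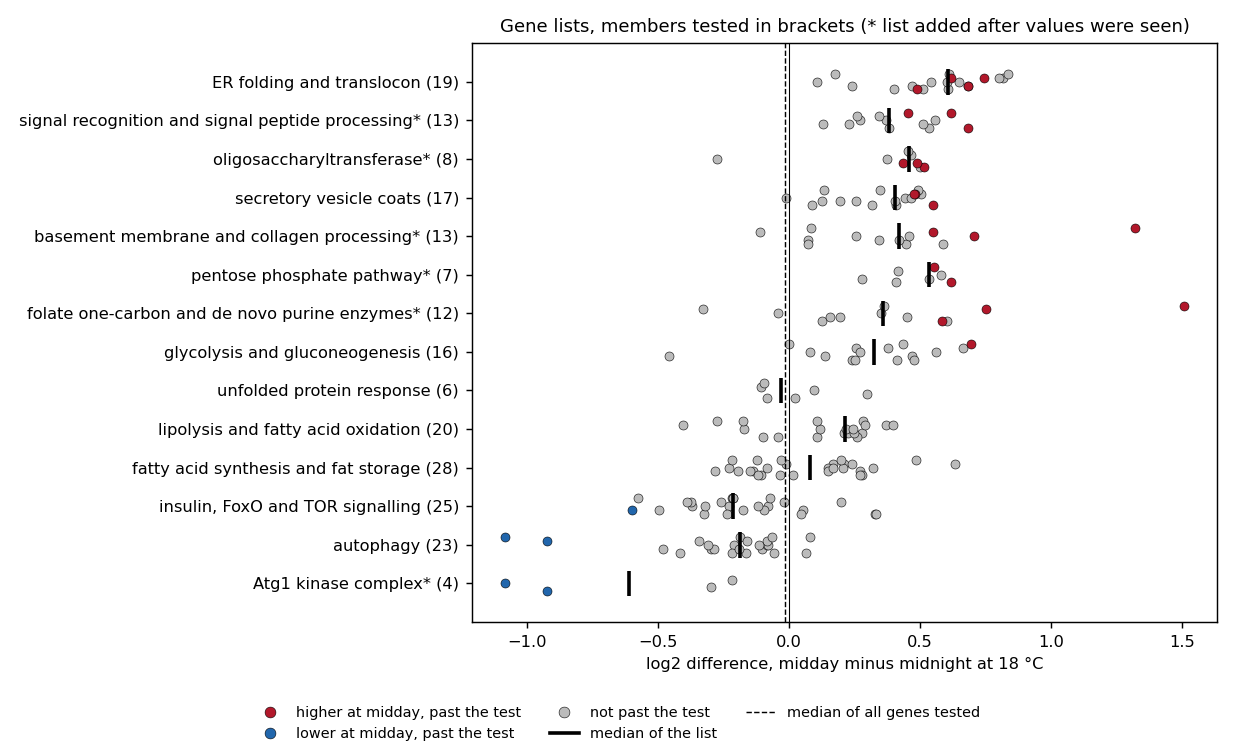
Log2 differences (midday minus midnight) of every tested member of 14 gene lists; red and blue points passed the test as higher and lower at midday, grey points did not, thick bars are list medians and the dashed line is the median of all genes tested. All 19 genes of ER folding and translocon lie above 0, and 21 of 23 autophagy genes lie below it. Over all 8999 genes tested, 4253 values were positive and 4746 negative.

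Basement membrane proteins are among the cargo of the fat body. Of 13 genes of the basement membrane and collagen processing, a list also made after values were seen, 3 were higher at midday, 12 had positive values, and the median was 0.42. Ndg, the nidogen gene, had 35.0, 76.3 and 125 CPM at midday and 19.2, 30.2, 23.8, 52.3 and 45.8 CPM at midnight (1.32 ± 0.22, adjusted p = 0.0241). One midday value, that of sampling 1 at ZT 8, lay below 2 of the midnight values, both of sampling 2. The collagen IV gene vkg had 620.1, 634 and 734 CPM at midday and 331, 457, 489, 508 and 484 CPM at midnight (0.55 ± 0.11, adjusted p = 0.0433), with the windows apart. Col4a1, which encodes the other chain of collagen IV, had 1014, 1074 and 1213 CPM at midday and 587, 778, 916, 884 and 877 CPM at midnight, also apart, yet did not pass (0.45 ± 0.11, adjusted p = 0.0783). PH4alphaEFB encodes the prolyl hydroxylase that collagen needs for folding, and rose by 0.71 (adjusted p = 0.0238). PH4alphaEFB passed in 7 of 11 fits without 1 library, Ndg in 3 and vkg in 1. The laminin genes LanA, LanB1 and LanB2 had 0.07, 0.07 and 0.34 and did not pass. Haemocytes also make these proteins. Of 13 haemocyte markers tested 0 passed in edgeR (4 at an unadjusted p under 0.05 and 4 in DESeq2) and 12 had positive values, with a median of 0.22 and summed levels of 1125, 1513 and 2081 CPM at midday (lowest, median, highest) and 891, 1185 and 1708 CPM at midnight (lowest, median, highest). Their part in the values of Ndg, vkg and Col4a1 was not tested.

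Autophagy begins with the Atg1 kinase, which forms a complex with Atg13, Atg17 and Atg101. Of 23 autophagy genes, none was higher at midday past the test, 2 were lower, and 21 values were negative, with a median of -0.19. Both calls passed in every fit without 1 library, and 2 genes of the list passed without the midday libraries with most gut or ovary marker RNA; 1 passed with marker means as covariates, without the block, without ZT 4 or over 22 libraries, and 0 in either sampling alone or without ZT 6. Sampling 1 alone gave -0.24 and sampling 2 alone -0.21. Atg1 had 34.5, 38.6 and 53.4 CPM at midday and 92.5, 91.4, 89.9, 84.9 and 87.6 CPM at midnight (-1.08 ± 0.11, adjusted p = 0.00484). All midnight values were above all midday values, and the highest adjusted p in any fit without 1 library was 0.0224. Atg101 had 21.9, 26.3 and 38.1 CPM at midday and 66.5, 51.1, 61.4, 38.3 and 41.8 CPM at midnight (-0.92 ± 0.11, adjusted p = 0.00929), and the windows were apart by less than 1 CPM. Among the rest, Atg9, a membrane carrier, had -0.48, Atg18b -0.42, Atg18a -0.34, Atg8a -0.31, Atg17 -0.30 and Atg13 -0.22, and none of them passed (adjusted p = 0.161, 0.121, 0.113, 0.158, 0.269 and 0.307). In the BDGP6.54 annotation, Atg101 (X:18791668-18793517, plus strand, 1 exon) lies within the span of S6KL (X:18788464-18806057, plus strand) without sharing exon bases with it, and both fell. Atg1 spans 3L:12784429-12805116 on the minus strand. Late endosome and lysosome genes, listed after values were seen, had 2 of 18 lower: Rab7, the GTPase of late endosomes (-0.57 ± 0.08, adjusted p = 0.0123), and the fusion protein gene Syx7 (-0.38 ± 0.08, adjusted p = 0.0433). TP53INP, whose product acts in autophagy and in transcription, was lower by the same test (-0.56 ± 0.12, adjusted p = 0.0450). The late endosome and lysosome list had a median of -0.13. Of its 18 genes, 3 had an unadjusted p under 0.05 and DESeq2 called 3, beside 17.4% and 5.85% of all genes. In fits without 1 library Rab7 passed in 9 of 11, TP53INP in 1 and Syx7 in 0.

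Insulin and TOR signals restrain autophagy. Of 25 genes of insulin, FoxO and TOR signalling, 1 was lower at midday, none was higher past the test, and 20 values were negative, with a median of -0.22. The gene was Ilp6, an insulin-like peptide made by fat body, with 44.0, 65.9 and 85.9 CPM at midday and 97.4, 78.1, 146, 84.6 and 66.7 CPM at midnight (-0.60 ± 0.11, adjusted p = 0.0382). The windows overlapped across samplings and were apart within each, and Ilp6 passed in 1 of 11 fits without 1 library and not with RLE scaling. InR, the insulin receptor gene, had -0.58, foxo -0.38, Thor, which encodes 4E-BP, -0.32, S6k -0.39 and mTor 0.05, and none of these passed (adjusted p = 0.202, 0.185, 0.354, 0.0815 and 0.798).

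The pentose phosphate pathway turns glucose 6-phosphate into ribose and NADPH. Of its 7 genes, again listed after values were seen, 2 were higher at midday and all 7 values were positive (median 0.53). Zw, glucose 6-phosphate dehydrogenase, had 247, 309.8 and 355 CPM at midday and 186, 179.9, 202, 257 and 165 CPM at midnight (0.62 ± 0.12, adjusted p = 0.0433). CG8036, a transketolase gene, had 1964, 2646 and 3368 CPM at midday and 1629, 1861, 1611, 2311 and 1803 CPM at midnight (0.55 ± 0.11, adjusted p = 0.0440). In both, 1 midnight value, from ZT 18 of sampling 2, exceeded the lowest midday value. Pgi, the isomerase at the branch of glycolysis, was the 1 gene of 16 in glycolysis and gluconeogenesis that passed, with 552, 836 and 1071 CPM at midday and 468, 457, 439.5, 649.6 and 519 CPM at midnight (0.70 ± 0.14, adjusted p = 0.0450). The same library again lay above the lowest midday value. That list had a median of 0.32, with 14 positive values and -0.46 for lactate dehydrogenase, Ldh (adjusted p = 0.280). One-carbon and purine genes, a list of 12 made after values were seen, had 3 higher. Shmt, which moves a carbon from serine to folate, had 351, 599 and 951 CPM at midday and 227, 453, 245, 654 and 458 CPM at midnight (0.75 ± 0.12, adjusted p = 0.0225). Nmdmc, the next enzyme of the folate route, had 83.2, 159.8 and 186 CPM at midday and 96.4, 36.5, 38.6, 60.2 and 24.6 CPM at midnight (1.51 ± 0.31, adjusted p = 0.0450), and Pfas, of purine synthesis, rose by 0.58 (adjusted p = 0.0204). For Shmt and Nmdmc the windows were apart within each sampling and overlapped across them. Shmt was also the 1 gene past the test among 25 of amino acid and nitrogen metabolism, whose median was 0.34. AsnS, asparagine synthetase, was not on that list and had 44.4, 87.9 and 138 CPM at midday and 39.6, 50.5, 26.1, 52.7 and 49.4 CPM at midnight (1.02 ± 0.15, adjusted p = 0.0175), with the windows apart within each sampling. The 20 antioxidant genes had 1 higher, Zw, and 1 lower, Gclc. Gclc, the catalytic subunit of the enzyme that starts glutathione synthesis, had 96.3, 120.4 and 163 CPM at midday and 222, 175, 240.5, 157 and 179.9 CPM at midnight (-0.67 ± 0.10, adjusted p = 0.0175), while Gclm, the gene of its regulatory subunit, had 0.57 (adjusted p = 0.0574). Of the 11 fits without 1 library, Gclc and AsnS passed in 7 and 7, Pfas in 6, Shmt in 4, CG8036, Pgi and Nmdmc in 2 each, and Zw in 1. With RLE scaling Pgi did not pass, and 1 of the 2 antioxidant calls was kept. Over all genes that scaling kept 82 of the 122 calls, so calls beyond those named as lost also fell short.

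Fatty acyl reductases and elongases, 15 genes listed after values were seen, had 2 genes higher and 2 lower at midday (median 0.13). Oenocytes of the epidermis also make such enzymes, and the oenocyte and epidermis markers, of which eloF is on both lists, had a median of 0.34 with 7 of 9 values positive; their part in these values was not tested. CG17560, an acyl-CoA reductase gene, had 1270.3, 2629.8 and 3247 CPM at midday and 755, 591, 1084, 1131 and 1325 CPM at midnight (1.35 ± 0.27, adjusted p = 0.0448). On the length-scaled measure its level was 1705 ± 443 TPM at midday and 705 ± 175 TPM at midnight (SD, n = 6 and 5). The midday library of sampling 1 at ZT 8 was the lowest of its window and lay below the midnight library at ZT 20. CG17562, which lies next to CG17560 in the annotation (3R:16615309-16617154 and 3R:16617950-16619878, plus strand), had 180.4, 232 and 384 CPM at midday and 161, 73.8, 174, 99.5 and 120.3 CPM at midnight (1.02 ± 0.20, adjusted p = 0.0433). The elongase gene CG18609 ran the other way, with 302, 474 and 616 CPM at midday and 1273, 546, 1667, 823 and 998 CPM at midnight (-1.24 ± 0.20, adjusted p = 0.0227). A single midday value, of sampling 1 at ZT 6, exceeded the lowest midnight value, of sampling 2 at ZT 16. Its neighbour CG17821 (2R:18742517-18743626 for CG18609 and 2R:18743806-18744996 for CG17821, minus strand) was low, at 0.916 to 2.28 CPM at midday (median 1.34) and 3.55, 2.43, 8.22, 3.56 and 4.81 CPM at midnight (-1.67 ± 0.34, adjusted p = 0.0450), and passed in 0 of 11 fits without 1 library. CG18609 passed in 6 of these fits, CG17560 in 1 and CG17562 in 1. Among 28 genes that make fatty acids or store fat, 0 passed in edgeR (4 at an unadjusted p under 0.05 and 2 in DESeq2), with a median of 0.08, which without 1 library ran from 0.02 (midnight ZT 16 of sampling 1) to 0.16 (midnight ZT 18 of sampling 1). The lipolysis and fatty acid oxidation list, 20 genes, also had 0 (5 at an unadjusted p under 0.05 and 0 in DESeq2), with a median of 0.21. Of the detoxification families, 1 of 22 UDP-glycosyltransferases passed, Ugt36D1 (past the test in 4 of 11 fits without 1 library), with 142, 178 and 193 CPM at midday and 87.6, 55.5, 108, 92.0 and 90.7 CPM at midnight (0.97 ± 0.16, adjusted p = 0.0241). In edgeR 0 of 70 cytochrome P450 genes (10 at an unadjusted p under 0.05 and 5 in DESeq2) and 0 of 29 glutathione S-transferase genes (2 at an unadjusted p under 0.05 and 0 in DESeq2) passed, with medians of 0.00069 and -0.01. The fatty acid binding protein gene fabp also passed (0.59, adjusted p = 0.0363), but 72.1% of its exon bases are shared with sea, so its reads could be split between them.

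Among the clock genes, cry was higher at midday and the others did not pass the test at 18 °C. Of the 3 genes of the negative limb (per, tim, cwo), the 4 activators and second-loop genes (Clk, cyc, vri, Pdp1) and the 9 kinase, phosphatase and degradation genes, 0 passed in edgeR, 0 had an unadjusted p under 0.05 and DESeq2 called 0. The 3 lists had medians of -0.14, 0.05 and -0.18, and the 2 light input genes, of which 1 passed, 0.38. Without 1 library these 3 medians ran from -0.29 to -0.08, from -0.05 to 0.12 and from -0.24 to -0.11. RNA of tim had 121, 249 and 445 CPM at midday and 500.1, 369.8, 481, 285 and 173 CPM at midnight (-0.45 ± 0.28, adjusted p = 0.422), and the windows overlapped widely. RNA of per had 18.8, 24.2 and 37.0 CPM at midday and 24.5, 33.5, 26.8, 31.2 and 26.1 CPM at midnight (-0.14 ± 0.16, adjusted p = 0.668). For vri, a repressor of Clk, the values were 63.9 to 144 CPM at midday (median 88.7) and 82.5, 78.1, 91.6, 74.6 and 41.8 CPM at midnight (0.30 ± 0.20, adjusted p = 0.468). Pdp1 had -0.15, Clk 0.24, cyc -0.13 and cwo 0.02 (adjusted p = 0.694, 0.657, 0.312 and 0.952). The light input gene cry had 142, 181 and 267 CPM at midday and 73.8, 86.1, 96.1, 129.9 and 141 CPM at midnight (0.92 ± 0.16, adjusted p = 0.0300), with the windows just apart and a call in 3 of 11 fits without 1 library, and jet, whose product takes part in TIM breakdown, had -0.17 (adjusted p = 0.673).

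Over the 10 times with both samplings at 18 °C, mean tim RNA was highest at ZT 12 (537 CPM) and lowest at ZT 24 (62.9 CPM), with 331 CPM at ZT 6 and 391 CPM at ZT 18. At 25 °C it was highest at ZT 18 (572 CPM) and lowest at ZT 4 (44.0 CPM), with 53.2 CPM at ZT 6. Mean vri RNA was highest at ZT 12 (169 CPM) at 18 °C and at ZT 18 (175 CPM) at 25 °C, per RNA at ZT 14 (46.5 CPM) and ZT 18 (25.0 CPM), and Pdp1 RNA at ZT 12 (225 CPM) and ZT 18 (208 CPM). At 18 °C these means were thus highest at ZT 12 or 14, between the windows, and at 25 °C within the midnight window. Each mean is over 2 libraries, CPM were scaled separately at each temperature, and the times of the peaks were not tested.

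**Figure D3:**
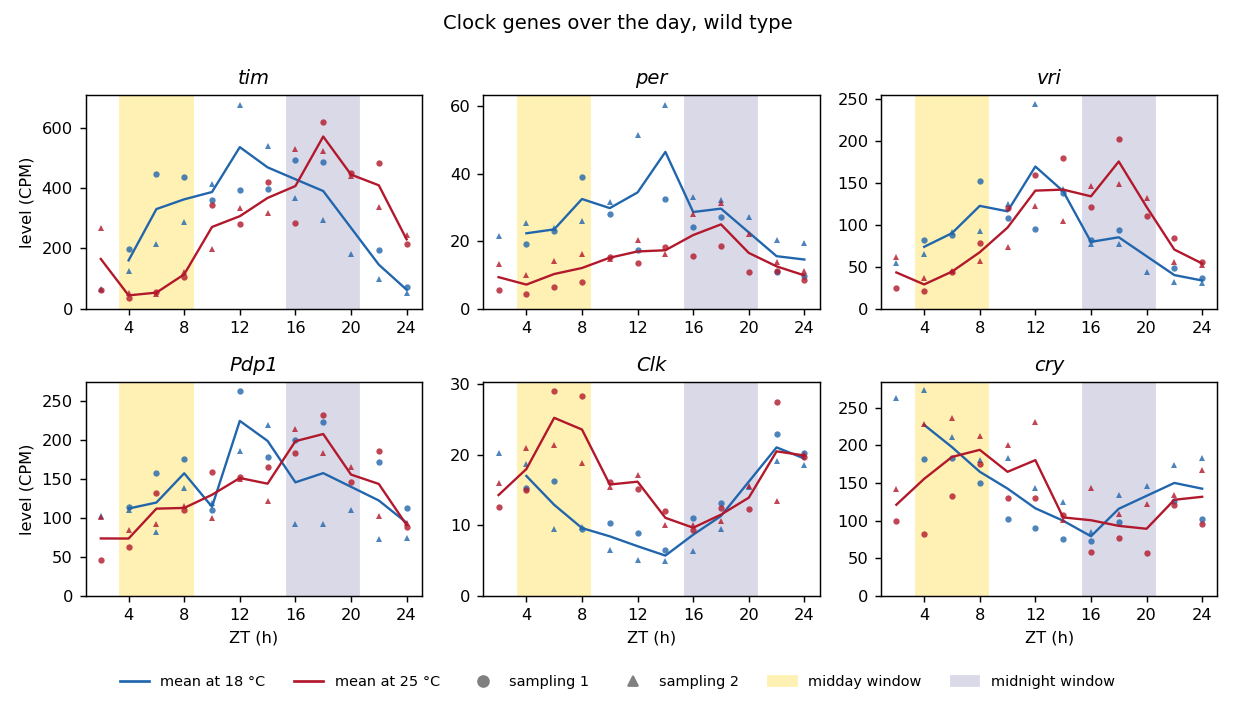
Levels in CPM of 6 clock genes by ZT in wild type at 18 °C (blue, 22 libraries) and 25 °C (red, 24 libraries), scaled separately at each temperature; points are libraries, lines means of the times with 2 libraries, and shaded bands the midday and midnight windows. At 18 °C the lines of tim, vri and Pdp1 are highest at ZT 12, between the windows, and at 25 °C at ZT 18.

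In the other lists, with the median log2 difference of each and, in brackets, its genes at an unadjusted p under 0.05 and those past the test in DESeq2, few or no genes passed in edgeR. Over all genes the bracketed counts come to 17.4% and 5.85%, and shares near these are not a result about a list. Circadian output and takeout family genes had 2 of 8 higher (CG17560 and CG17562) and 1 lower (Gclc), at 0.10 (6 and 6). With RLE scaling 2 of these 3 passed. Of 20 tRNA synthetases 1 was higher (SerRS, 0.31, adjusted p = 0.0450, past the test in 0 of 11 fits without 1 library), at 0.07 (3 and 2), and of 25 cuticle protein genes 1 was lower (Cpr73D, not past the test with RLE scaling), at 0.39 (9 and 2). The other 24 cuticle protein genes had positive values and did not pass, beside the median of 0.34 of the oenocyte and epidermis markers, whose part was not tested. With 0 genes past the test in edgeR, heat shock proteins and chaperones (22 genes) were at 0.29 (5 and 3), lipid carriers and receptors (10) at 0.24 (2 and 1), storage and yolk proteins (5) at 0.59 (3 and 1), and thermal and stress peptides (7) at 0.48 (1 and 1). Likewise oxidative phosphorylation subunits (65) were at 0.25 (24 and 1), mitochondrial ribosomal proteins (73) at 0.15 (15 and 0), cytosolic ribosomal proteins (82) at 0.03 (0 and 0) and proteasome subunits (33) at 0.08 (2 and 1). Antimicrobial peptides (19) were at 0.08 (1 and 0), immune recognition and signalling (25) at 0.04 (5 and 1), ribosome biogenesis (25) at -0.12 (3 and 1), nuclear receptors (16) at -0.04 (4 and 2), glycogen and trehalose (10) at 0.11 (3 and 2), iron storage and transport (8) at 0.01 (0 and 0) and mitochondrially encoded RNA (12) at -0.02 (0 and 0). Many of these medians moved by over 1.5 times without 1 library. Thermal and stress peptides were at 0.18 without midday ZT 4 of sampling 1, heat shock proteins and chaperones at 0.12 without midday ZT 8 of sampling 1, lipid carriers and receptors at 0.10 and cuticle proteins at 0.25 without midnight ZT 16 of sampling 1. Antimicrobial peptides ran from -0.15 (without midday ZT 4 of sampling 2) to 0.38 (without midnight ZT 18 of sampling 2), and ribosome biogenesis from -0.22 (without midnight ZT 18 of sampling 1) to -0.02 (without midnight ZT 16 of sampling 1). Glycogen and trehalose, nuclear receptors, iron storage and transport, cytosolic ribosomal proteins and the circadian output list changed sign in at least 1 such fit. Of these lists, apolpp, the gene of the main lipoprotein of the haemolymph, had 0.76, and the yolk protein genes Yp1, Yp2 and Yp3 had 0.49, 0.70 and 0.59 (adjusted p = 0.110, 0.289, 0.165 and 0.248). At 2-fold, the test recovered 53.1% of changed genes in data simulated for this comparison (8999 genes), and 26.5% at 1.5-fold, so that a value short of the threshold does not show equal levels.

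Times outside the windows did not enter the test, and their means were compared over the 10 times with both samplings, which leaves out ZT 2 and 20. Of the 75 genes higher at midday, 64 had their highest mean at ZT 4 to 8, 9 at ZT 10 to 14, 0 at ZT 16 and 18 and 2 at ZT 22 and 24. Their lowest means fell at ZT 16 and 18 for 42 genes, at ZT 10 to 14 for 22 and at ZT 22 and 24 for 11. Of the 47 genes lower at midday, 30 were highest at ZT 16 and 18, 15 at ZT 10 to 14 and 2 at ZT 22 and 24. Their lowest means fell at ZT 4 to 8 for 24 genes, at ZT 22 and 24 for 16 and at ZT 10 to 14 for 7. The windows chose these genes, so that a peak inside them is in part fixed by the choice. Among the ER genes, Calr was highest at ZT 4 (656 CPM), SsRbeta at ZT 6 (167 CPM) and CG5885 at ZT 6 (151 CPM), and their lowest means came at ZT 14 (303 CPM), ZT 16 (77.4 CPM) and ZT 16 (64.8 CPM). CG17560 was highest at ZT 4 (3237 CPM) and lowest at ZT 16 (665 CPM). Atg1 was highest at ZT 22 (95.9 CPM) and lowest at ZT 6 (37.7 CPM), with 52.9 CPM at ZT 14 and 90.9 CPM at ZT 16. At 25 °C its highest mean was at ZT 24 (85.3 CPM) and its lowest at ZT 16 (48.0 CPM), and the mean at ZT 4 was 81.7 CPM. Rab7 and cu were highest soon after lights off, both at ZT 14 (390.1 and 216 CPM), and rost at ZT 18 (82.5 CPM).

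**Figure D4:**
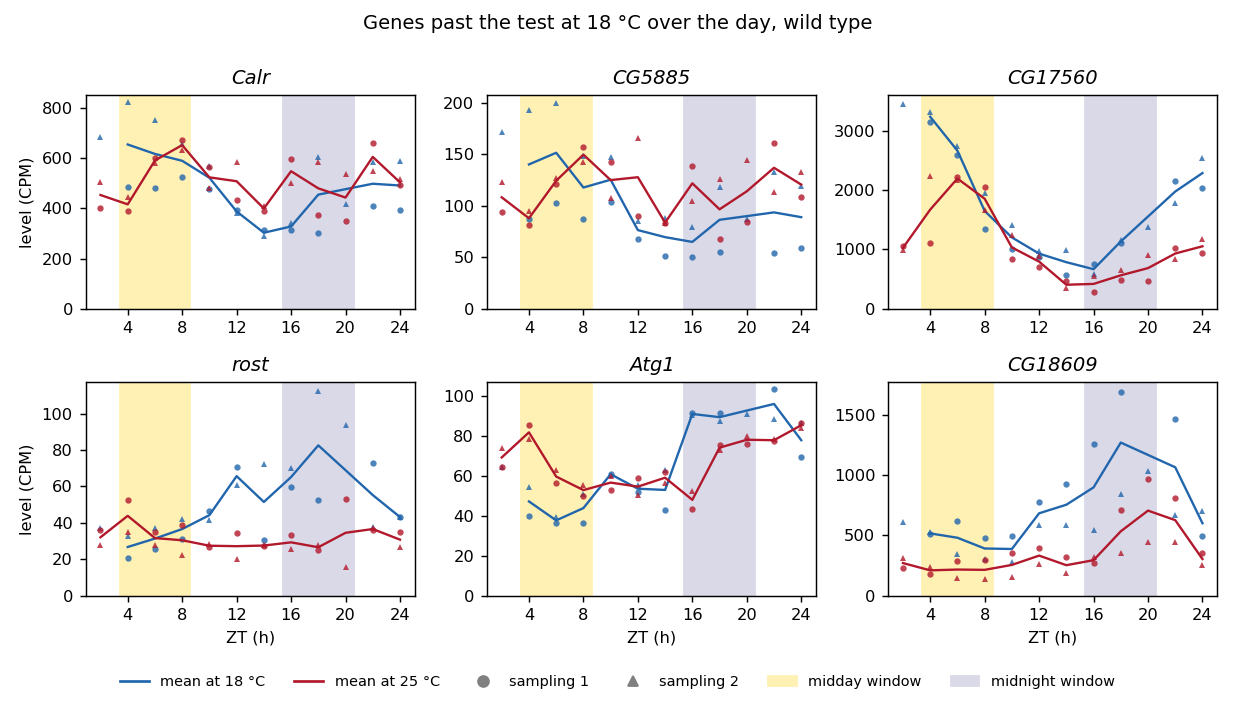
Levels in CPM of 6 genes past the test at 18 °C by ZT in wild type at 18 °C (blue, 22 libraries) and 25 °C (red, 24 libraries), scaled separately at each temperature; points are libraries, lines means of the times with 2 libraries, and shaded bands the windows. The mean of CG17560 is highest at ZT 4 at 18 °C and at ZT 6 at 25 °C, while that of rost at 25 °C stays between means of 26.6 and 43.8 CPM.

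The same windows at 25 °C gave 2 genes past the test of 8652 (0.0231%): tim, at -2.76 ± 0.31, and CG17560, at 1.83 ± 0.22 (adjusted p = 0.0103 and 0.0103). DESeq2 called 74 there (0.855%). Of the 121 genes past the test at 18 °C that were also tested at 25 °C, 86 had the same sign there, with a median size of 0.19 at 25 °C. The share of equal signs over all genes is not given here, so no agreement between temperatures is read from this count. At 18 °C the median size was 0.67, a value that the choice of the genes raises. The difference between temperatures was tested itself, as an interaction over 9275 genes, and 1 gene passed (0.0108%), with 1460 at an unadjusted p under 0.05 (15.7%) and 83 in DESeq2 (0.895%). Of the 122 genes past the test at 18 °C, 0 passed it in edgeR, 77 had an unadjusted p under 0.05, and 17 passed in DESeq2. The 18 °C values that chose these genes also enter the interaction, which raises both counts, and nothing is read from them. The gene was CG9837, with 45.6, 77.6 and 89.2 CPM at midday and 47.7, 42.6, 51.0, 33.1 and 25.6 CPM at midnight at 18 °C, where it missed the threshold (0.86 ± 0.20, adjusted p = 0.0682). At 25 °C its difference was -1.15 ± 0.18 (adjusted p = 0.0602), and 18 °C minus 25 °C was 1.99 ± 0.28 (adjusted p = 0.00582). Just short of the threshold were tim (2.28 ± 0.44), vri (1.90 ± 0.35), rost (-1.5 ± 0.27), CG18622 (1.20 ± 0.21) and CARPB, a carbonic anhydrase-related gene (1.12 ± 0.21), with adjusted p of 0.0563, 0.0563, 0.0558, 0.0558 and 0.0563. B4 had -0.80 ± 0.16 (adjusted p = 0.0633). For rost the difference at 25 °C was 0.24 ± 0.20 and for Atg1 -0.04 ± 0.18 (interaction adjusted p = 0.0558 and 0.0925).

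Other genes had differences of the same sign at both temperatures. Among them were CG17562 (1.02 at 18 °C and 1.5 at 25 °C), CG18609 (-1.24 and -1.23), CG17821 (-1.67 and -2.23), Ugt36D1 (0.97 and 1.0), cry (0.92 and 0.94) and Zw (0.62 and 0.59), with interaction differences of -0.50 ± 0.31, -0.04 ± 0.35, 0.55 ± 0.56, -0.05 ± 0.27, -0.04 ± 0.22 and 0.00288 ± 0.24. They were chosen for this after their values were seen, and the SE leave room for differences between the temperatures. The ER folding and translocon list had a median of 0.61 at 18 °C and 0.11 at 25 °C, secretory vesicle coats 0.41 and 0.01, and autophagy -0.19 and -0.23. Whether these medians differ was not tested.

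**Figure D5:**
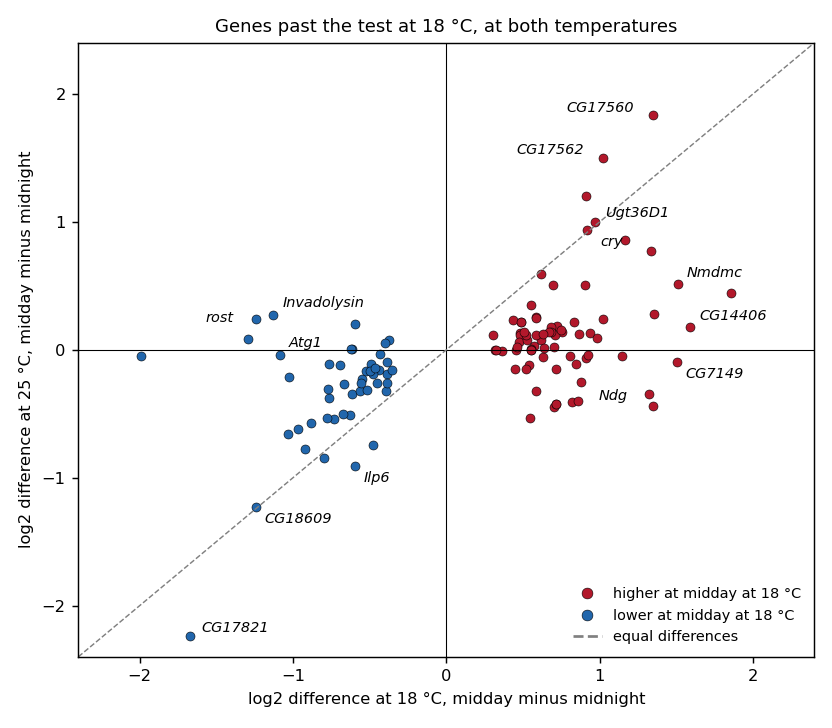
Log2 difference between midday and midnight at 18 °C (x axis) and at 25 °C (y axis) for the 121 genes past the test at 18 °C that were tested at both; red points were higher and blue points lower at midday at 18 °C, and the dashed line marks equal differences. CG17560, CG17562, CG18609, CG17821, cry and Ugt36D1 lie near or beyond the dashed line, while rost, Atg1, CG14406 and CG7149 lie between -0.10 and 0.24 on the y axis.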

How the data were processed

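RNA of abdominal fat tissue was sequenced as poly(A) libraries on an Illumina HiSeq, per the labels' protocols, with no statement that strand was kept. The deposited tables hold estimated counts and TPM per gene, made by the authors with kallisto 0.46.2, per the submitters' processing notes; the annotation behind them is not stated there. Estimated counts were rounded to whole numbers, genes were kept by filterByExpr over the windows, libraries were scaled by TMM, and edgeR 4.0.16 in R 4.3.3 fitted window and sampling, with its two-sided quasi-likelihood test, Benjamini-Hochberg adjustment over all genes tested and a threshold of 0.05. The interaction used the same fit over both temperatures. The test was also run on counts simulated from its own fitted model, with 200 genes changed and no effect of ZT within a window. At 18 °C it called 9 unchanged genes there. Such counts cannot show how the test fares where real libraries depart from that model.

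The sampling number entered as a block because the series' design text calls the samplings independent. Deviations from the window means were correlated between midday and midnight libraries. Pairs of the same sampling number ran from -0.22 to 0.69 (mean 0.38, 15 pairs). The mean of -0.38 for different numbers largely follows from that, because deviations cancel out within a window. Of 8999 genes tested, 3646 differed between samplings at an adjusted p under 0.05 in edgeR, beside 122 between windows. The first principal component (43.06% of variance) also set the samplings apart. P-values measure the spread left after window and sampling were fitted, between pools of flies that also differ in ZT. The difference between samplings is taken up by the block. No ZT was repeated within a sampling, so the parts of ZT and pool in this spread cannot be told apart. Positions came from the BDGP6.54 annotation, a separate source from the counts, which matched 122 of 122 genes past the test. Of these, 26 share exon bases with another tested gene, 5 of them over 20%.

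Members and lists were chosen with earlier results of these data known, and 10 lists and further genes were added after their values were seen. Genes named by rule were all clock genes, up to 4 per list with the smallest p, up to 12 per direction with the largest differences (windows apart, mean log2 CPM of at least 3) and the 8 smallest interaction p-values. Of those 8, CG7201 is not described, because its counts are too low for a fold.
Alternatives were RLE scaling, DESeq2 1.42.0, other filters, limma 3.58.1 on log2(TPM + 1), no block, other libraries and times, and marker means as covariates.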

Additional observations from a re-analysis of the deposited data

Results flagged for a closer look

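In 14 of 388 groups of libraries of 1 gene, the highest or the lowest library stood apart from the rest of its window by Dixon's criterion, which chance meets in about 1 in 20 groups. The midday library at ZT 8 of sampling 2 held the extreme value for 3 clock-related genes, dco (93.7 CPM), slmb (73.1 CPM) and tws (77.9 CPM). The midday library at ZT 6 of sampling 2 did so for S6k (62.9 CPM) and for the eggshell genes Cp38 (163 CPM) and Cp7Fa (23.9 CPM), and the midday library at ZT 6 of sampling 1 for the zinc transporter gene ZnT35C (2.50 CPM). At midday ZT 4, Invadolysin stood out in sampling 1 (159 CPM) and CARPB in sampling 2 (48.5 CPM). At midnight the extreme values were vri at ZT 20 of sampling 2 (41.8 CPM), SsRbeta (126 CPM) and the antibacterial peptide gene AttB (23.3 CPM) at ZT 18 of sampling 2, and the acyltransferase gene Agpat3 (294 CPM) and the storage protein gene Lsp1beta (0.684 CPM) at ZT 16 of sampling 2.

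The difference between midday and midnight itself differed between temperatures for CG9837, by 1.99 on the log2 scale (18 °C minus 25 °C), in the interaction test of edgeR.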

How the results depend on the processing

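Every gene of the 122 kept its sign in each alternative in which it could be fitted, which is largely fixed by their choice from the same libraries. The count of 122 genes at 18 °C moved with most choices. It was 7 without the replicate block, 526 in DESeq2 (114 of the 122 among them), 81 without a filter on low counts, 42 with a mean per ZT over 22 libraries (31 shared), 185 with the ZT 20 library of sampling 1 kept, 9 with marker means as covariates and 19 without the midday libraries with most ovary or gut marker RNA, an alternative chosen after seeing the data. Of the 42 over 22 libraries, 38 were higher at midday and 4 lower, beside 75 and 47 in the main fit. With RLE scaling the count was 82, with log2 CPM of at least 3 it was 183 and with limma on TPM 172. An adjusted p under 0.01 left 11 genes and a log2 difference of at least 1 left 23. Leaving out 1 library gave 13 to 176. Sampling 2 alone gave 0 genes in edgeR (582 at an unadjusted p under 0.05) and sampling 1 alone 1. Leaving out the libraries of 1 time gave 2 (ZT 4), 0 (ZT 6, with 1030 at an unadjusted p under 0.05), 52 (ZT 8), 50 (ZT 16), 38 (ZT 18) and 20 (ZT 20). The interaction gave 0 genes without the replicate block (784 at an unadjusted p under 0.05) and 83 in DESeq2, and 25 °C gave 74 in DESeq2. The causes of these shifts were not tested.

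Of the named genes, 38 passed the test. Over the alternatives the results of these 38 kept their side of the threshold 481 times, lost it 621 times and never reversed. For 152 named genes that did not pass, the results stayed short of the threshold 4260 times and came past it 100 times. With 5 or 6 libraries a window, simulated 2-fold changes were recovered at 53.1% and 3-fold changes at 91.7% (8999 genes).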

Other observations

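Further genes that passed the test at 18 °C, chosen for mention after their values were seen, were single enzymes and signalling genes. Higher at midday were Sodh2, a sorbitol dehydrogenase gene (0.93 ± 0.19, adjusted p = 0.0458), Fum1, which encodes fumarase (0.52 ± 0.09, adjusted p = 0.0351), Papss, whose product makes the sulfate donor of the cell (0.54 ± 0.11, adjusted p = 0.0421), and Ldsdh1, which encodes a dehydrogenase of lipid droplets (0.55 ± 0.11, adjusted p = 0.0458). The redox protein gene dj-1beta had 0.63 ± 0.12, adjusted p = 0.0422 and Ac76E, an adenylyl cyclase gene, 0.46 ± 0.09, adjusted p = 0.0433. Lower at midday were the small GTPase genes Rab8 (-0.43 ± 0.08, adjusted p = 0.0372) and Rab19 (-0.50 ± 0.10, adjusted p = 0.0448), p38a, which encodes a stress-activated kinase (-0.38 ± 0.08, adjusted p = 0.0433), Tob, a gene of the BTG and Tob family (-0.62 ± 0.10, adjusted p = 0.0238), and the forkhead factor gene CHES-1-like (-0.48 ± 0.09, adjusted p = 0.0382). In fits without 1 library these passed in 1 (Sodh2), 2 (Fum1), 0 (Papss), 1 (Ldsdh1), 1 (dj-1beta), 1 (Ac76E), 2 (Rab8), 1 (Rab19), 1 (p38a), 4 (Tob) and 1 (CHES-1-like) of 11 fits.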
